A study of Sus scrofa with 9 samples.

Results

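The genes described here encode Toll-like receptors, the proteins that help them bind ligand, and the first proteins that carry their signal into the cell. By gene symbol they were TLR2, TLR3, TLR4, TLR7, TLR8, CD14, LY96, MYD88, IRAK1 and TRAF6. Of these 10 genes, 9 were found among the 25149 genes of the expression table, and TRAF6 was not analysed here. RNA was sequenced from the apex of 9 pig hearts, 3 in each of 3 groups. All donors were female American Yorkshire pigs aged 4 to 6 months, and in every group donation after circulatory death was simulated with 15 min of warm ischemia. Group 1 (NRP + HOPE 24 h, pigs 27, 28 and 30, here the 24 h HOPE hearts) and Group 2 (NRP + SCS 2 h, pigs 24, 25 and 29, here the SCS hearts) then received normothermic regional perfusion (NRP) for 60 min, in which warm oxygenated blood is pumped through organs that are still inside the donor. Group 3 (No NRP + HOPE 2 h, pigs 31, 33 and 34, here the no-NRP hearts) went without it. The 24 h HOPE hearts were kept for 24 h and the no-NRP hearts for 2 h in hypothermic oxygenated perfusion (HOPE) at 8 °C, with a perfusate that held donor red cells. The SCS hearts lay for 2 h in static cold storage (SCS) at 4 °C. All hearts were then rewarmed and perfused for 2 h with donor whole blood on a machine (normothermic machine perfusion, NMP) before the biopsy, so that no group stands for an untouched heart.

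Toll-like receptors are innate immune sensors. TLR2 and TLR4 sit at the cell surface and recognise microbial lipids and also molecules released by damaged tissue, whereas TLR3, TLR7 and TLR8 sit in endosomes and recognise RNA. CD14 hands lipid ligands to TLR4 and TLR2, and LY96 (also called MD-2) is the small protein through which TLR4 binds lipopolysaccharide. All of these receptors except TLR3 signal through the adaptor MYD88, which recruits the kinase IRAK1 and the ubiquitin ligase TRAF6 and leads to NF-κB and inflammatory cytokines. TLR3 uses the adaptor TRIF instead, which leads to type I interferon, and TLR4 can use both.

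Values are TPM, read abundances scaled for gene length and to the same total in every heart. The labels name cardiomyocytes as the cell type, whereas the study's methods describe whole apex biopsies, and markers of several cell types were found. The 9 cardiomyocyte markers found of 13, led by the troponins TNNI3 and TNNT2, summed to 23139 to 43966 TPM over the hearts. The monocyte and macrophage markers (12 of 17 found, led by C1QA and TYROBP) summed to 121 to 411 TPM, the endothelial markers (7 of 10, led by PECAM1 and KDR) to 259 to 555 TPM, and the fibroblast markers (5 of 7, led by COL3A1 and DCN) to 669 to 1150 TPM. The lymphocyte markers (9 of 11, led by NKG7 and GZMB) summed to 8.16 to 31.2 TPM and the neutrophil markers (8 of 12, led by S100A9 and ELANE) to 1.44 to 16.4 TPM, with the neutrophil genes CSF3R and MPO listed at 0 in every heart. A gene listed at 0 in every heart may be one that could not be estimated, and such a 0 is not read here as absent expression. Mitochondrially encoded genes took 38.2% (pig 30) to 55.3% (pig 27) of all TPM, and in a fixed total a larger share for them leaves less for every other gene.

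Across the 9 hearts the adaptor and its kinase were more abundant than the receptors. The mean level was 22.7 TPM for IRAK1 and 22.6 TPM for MYD88, followed by CD14 (9.40 TPM), TLR2 (6.57 TPM), TLR4 (4.32 TPM), LY96 (3.36 TPM), TLR3 (1.93 TPM), TLR7 (0.796 TPM) and TLR8 (0.0873 TPM). Neighbours in this order were compared within hearts by an exact sign-flip permutation test on log2(TPM + 1), two-sided and adjusted over the 8 pairs. IRAK1 and MYD88 did not differ beyond their spread (IRAK1 higher in 6 of 9 hearts, adjusted p = 0.922), nor did TLR4 and LY96 (5 of 9 hearts, adjusted p = 0.433) or TLR3 and TLR7 (6 of 9 hearts, adjusted p = 0.177). The other 5 neighbouring pairs differed, with adjusted p from 0.0156 (MYD88 above CD14, and TLR7 above TLR8, each in 9 of 9 hearts) to 0.0438 (TLR2 above TLR4, in 7 of 9 hearts). The endosomal receptors were thus the 3 lowest genes.

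**Figure D1:**
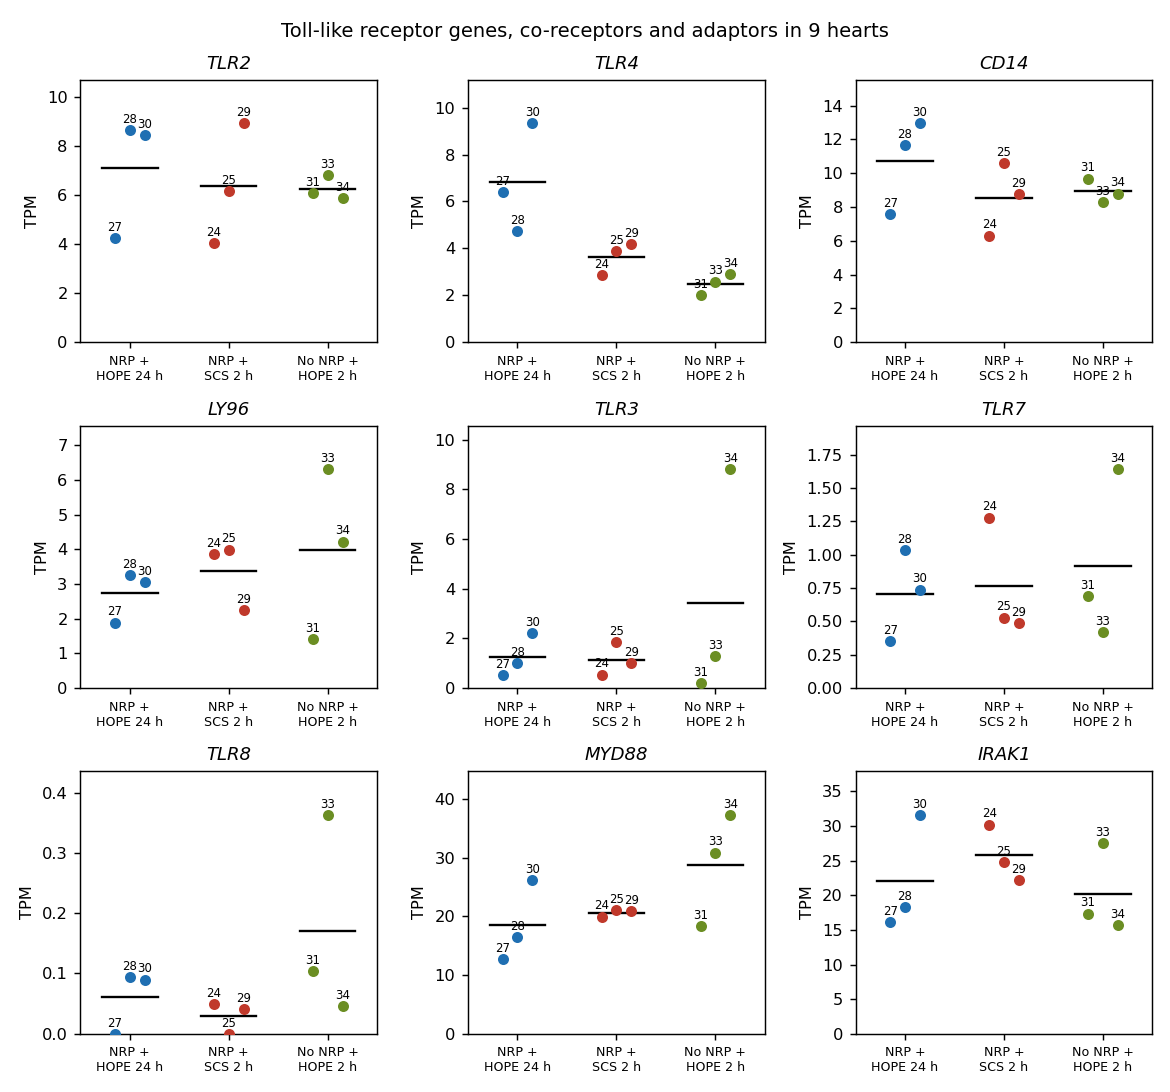
Level of each of the 9 genes in every heart (TPM, axes from 0), by group; points are hearts labelled with the pig number and bars are group means. The 3 TLR4 values of the 24 h HOPE hearts (4.73 to 9.33 TPM) lie above all 6 other hearts (2.02 to 4.18 TPM), while in the other genes the groups overlap, and pig 34 stands alone in TLR3 at 8.81 TPM.

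TLR4 (ENSSSCG00000005503) was at 6.39, 4.73 and 9.33 TPM in the 24 h HOPE hearts 27, 28 and 30. The SCS hearts 24, 25 and 29 had 2.86, 3.89 and 4.18 TPM, and the no-NRP hearts 31, 33 and 34 had 2.02, 2.58 and 2.89 TPM. Every heart stored for 24 h thus lay above every heart stored for 2 h, and of the no-NRP hearts only pig 34 exceeded the lowest SCS heart, pig 24. The means were 6.82 ± 2.33, 3.64 ± 0.691 and 2.50 ± 0.443 TPM (SD, n = 3 hearts each). In bulk tissue, fewer cells of a type and less RNA per cell cannot be told apart.

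The comparison of 24 h HOPE with SCS asks what extended HOPE does to hearts that had received NRP, and storage method, duration and temperature changed together in it and cannot be told apart. The log2 fold change of TLR4 was 0.72 there (SE 0.32, 95% interval 0.03 to 1.41), with a limma adjusted p of 0.972 over all 11782 genes tested. The comparison of no-NRP with SCS asks about NRP, with a change of storage method alongside, and gave -0.41 (interval -1.09 to 0.28, limma adjusted p = 0.860). Between 24 h HOPE and no-NRP, which differ in NRP and in storage time, it was 1.13 (SE 0.32, interval 0.44 to 1.81, limma adjusted p = 0.403). The hearts did not overlap in either comparison of 24 h HOPE, for which an exact permutation test of 3 hearts against 3 gives p = 0.1, the smallest it can. All p-values measure the spread between hearts, 1 biopsy from each pig.

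A contrast chosen after the values were seen set the 3 hearts stored for 24 h against the 6 stored for 2 h. The TLR4 log2 fold change was then 0.92 (SE 0.28, interval 0.33 to 1.52, limma adjusted p = 0.556). The exact permutation test, two-sided, gave p = 0.0119, the smallest possible for 3 hearts against 6. Since the lack of overlap had already been seen, this p adds no separate evidence. TLR4 was the 1 of the 8 genes tested with an unadjusted limma p under 0.05 and the 1 of 8 without overlap, where 5.16% of all genes had such a p and 2% had no overlap. In the same contrast 0.017% of all genes and 0 of the 8 passed the adjusted threshold with an absolute log2 fold change over 1. The 3 no-NRP hearts against the 6 with NRP gave -0.77 for TLR4 (interval -1.36 to -0.17, limma adjusted p = 0.609), with an overlap and an exact permutation p of 0.0595. There TLR4 was the 1 of 8 with an unadjusted p under 0.05 (6.92% of all genes) and 0 of 8 had no overlap (2.35% of all genes). Both contrasts use the same hearts as the comparisons above.

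TLR4 was also the only one of the 8 genes with an unadjusted limma p under 0.05 for 24 h HOPE over SCS (1 of 8, against 4.97% of all genes) and over no-NRP (1 of 8, against 6.01%). For no-NRP over SCS the limma count was 0 of 8, against 7.22% of all genes. Hearts did not overlap for 1 of 8 in 24 h HOPE over SCS (9.82% of all genes), 0 of 8 in no-NRP over SCS (14.7%) and 1 of 8 in 24 h HOPE over no-NRP (7.48%). In limma 0 of the 8 passed an adjusted p of 0.05 together with an absolute log2 fold change over 1, a rule that 0.0255% of all genes passed in the first of these comparisons and 0.0509% in each of the others. The median log2 fold change of the 8 genes was 0.01 in 24 h HOPE over SCS, 0.08 in no-NRP over SCS and -0.02 in 24 h HOPE over no-NRP, beside -0.12, -0.07 and -0.03 over all genes. TLR8 did not reach 1 TPM in any heart and was not tested.

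The TLR4 difference from SCS was the less stable of the pair. Its unadjusted limma p no longer lay under 0.05 without pig 27 (log2 fold change 0.74), 30 (0.50), 24 (0.59), 25 (0.76) or 29 (0.80). Over no-NRP it lay under 0.05 in all 16 settings that tested TLR4, with log2 fold changes from 0.85 to 1.37.

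**Figure D2:**
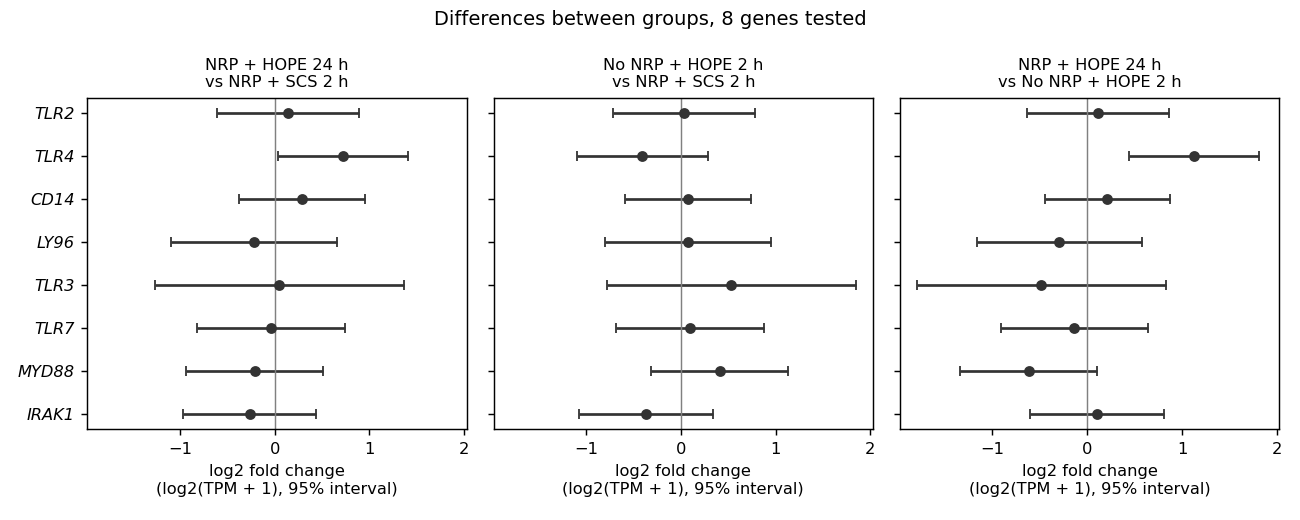
Log2 fold change of the 8 genes tested in the 3 comparisons of groups, on the log2(TPM + 1) scale; points are limma estimates and bars their 95% intervals, unadjusted for the number of genes. The TLR4 intervals of 24 h HOPE over SCS (0.03 to 1.41) and over no-NRP (0.44 to 1.81) lie above 0, and all other intervals include 0.

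The partners of TLR4 at the cell surface did not show its order of groups. LY96 (ENSSSCG00000006175) had 1.89, 3.25 and 3.06 TPM in the 24 h HOPE hearts, 3.86, 3.99 and 2.24 TPM in the SCS hearts, and 1.40, 6.31 and 4.22 TPM in the no-NRP hearts, whose group held both its lowest and its highest heart. Its log2 fold change was -0.22 (interval -1.09 to 0.66) for 24 h HOPE over SCS and 0.07 (-0.80 to 0.95) for no-NRP over SCS, with limma adjusted p = 0.993 and 0.987. TLR4 stood at 3.38, 1.46 and 3.05 times LY96 in the 24 h HOPE hearts, at 0.742, 0.975 and 1.86 times in the SCS hearts and at 1.44, 0.409 and 0.685 times in the no-NRP hearts. This ratio overlapped between 24 h HOPE and SCS and between SCS and no-NRP, while all 24 h HOPE hearts lay above all no-NRP hearts.

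CD14 (ENSSSCG00000014369) had 7.58, 11.7 and 12.9 TPM in the 24 h HOPE hearts, 6.31, 10.6 and 8.77 TPM in the SCS hearts, and 9.68, 8.30 and 8.79 TPM in the no-NRP hearts. Its highest heart (pig 30) was 2.05 times its lowest (pig 24), one of the narrowest ranges beside the 2.01 times of IRAK1. The log2 fold changes were 0.29 (interval -0.37 to 0.95) for 24 h HOPE over SCS, 0.08 (-0.59 to 0.74) for no-NRP over SCS and 0.21 (-0.45 to 0.88) for 24 h HOPE over no-NRP, with limma adjusted p from 0.981 to 0.993. The first of these intervals includes the 0.72 measured for TLR4.

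TLR2 (ENSSSCG00000009002) had 4.25, 8.64 and 8.44 TPM in the 24 h HOPE hearts, 4.03, 6.15 and 8.91 TPM in the SCS hearts, and 6.08, 6.80 and 5.86 TPM in the no-NRP hearts. The groups overlapped, and the spread within the 24 h HOPE and SCS groups (SD 2.48 and 2.45 TPM) was larger than the distance between any of the 3 means (6.25 to 7.11 TPM). Its log2 fold changes lay between 0.03 and 0.14 in the 3 comparisons, with limma adjusted p from 0.992 to 0.996.

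Among the RNA sensors, TLR3 (ENSSSCG00000015801) was dominated by 1 heart. It had 0.525, 0.992 and 2.20 TPM in the 24 h HOPE hearts, 0.537, 1.84 and 1.01 TPM in the SCS hearts, and 0.189, 1.27 and 8.81 TPM in the no-NRP hearts. Pig 34 was thus at 46.6 times the level of pig 31 of the same group, the widest range among the 8 genes above 0 in every heart. The log2 fold change of no-NRP over SCS was 0.53 (interval -0.78 to 1.84, limma adjusted p = 0.917), and without pig 34 it was -0.33. For 24 h HOPE over no-NRP it was -0.48 with pig 34 and 0.38 without it, so that the direction in both comparisons depended on this heart. Pig 31 was the lowest of the 9 hearts. Over all settings tried, the log2 fold change ran from -0.33 to 1.20 for no-NRP over SCS. For 24 h HOPE over no-NRP it ran from -1.15 to 0.38.

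The genes whose levels were most like that of TLR3 over the 9 hearts were the interferon-induced antiviral genes RSAD2 (r = 0.99) and MX2 (r = 0.98) and the gene PLAC8 (r = 0.98), out of 92 genes with r of at least 0.9. RSAD2 was at 468 TPM in pig 34 and at 8.36 to 52.7 TPM in the other 8 hearts. MX2 was at 218 TPM in pig 34 and at 22.4 to 72.6 TPM elsewhere. UNC93B1, which carries the endosomal receptors to their compartment, was likewise highest in pig 34 (68.2 TPM, against 3.05 to 11.7 TPM elsewhere).

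TLR7 (ENSSSCG00000012117) and TLR8 (ENSSSCG00000012118), which both sense single-stranded RNA, were the lowest of the genes. TLR7 had 0.354, 1.03 and 0.737 TPM in the 24 h HOPE hearts, 1.28, 0.528 and 0.489 TPM in the SCS hearts, and 0.690, 0.418 and 1.64 TPM in the no-NRP hearts, and it reached 1 TPM in 1 heart of each group. Its log2 fold changes were -0.04, 0.10 and -0.14 for 24 h HOPE over SCS, no-NRP over SCS and 24 h HOPE over no-NRP, with limma adjusted p from 0.979 to 0.996. TLR8 was listed at 0 in pigs 27 and 25 and at 0.0404 to 0.363 TPM in the other 7 hearts, the highest of them pig 33. Read depth is not known here, and at such levels these hearts do not resolve a difference between groups.

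The adaptor MYD88 (ENSSSCG00000011251) had 12.7, 16.5 and 26.2 TPM in the 24 h HOPE hearts, 19.9, 21.0 and 20.9 TPM in the SCS hearts, and 18.3, 30.9 and 37.2 TPM in the no-NRP hearts. The SCS hearts were tightly grouped, while both other groups spread widely around them. Its log2 fold changes were -0.21 (interval -0.93 to 0.51) for 24 h HOPE over SCS, 0.41 (-0.32 to 1.13) for no-NRP over SCS and -0.62 (-1.34 to 0.11) for 24 h HOPE over no-NRP, with limma adjusted p = 0.993, 0.870 and 0.862. As deposited, MYD88 did not separate the groups.

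MYD88 was also read on another scale. Median-of-ratios scaling divides each heart by a factor taken from its typical gene, and the factor was 0.737 (pig 27), 0.916 (pig 28) and 1.34 (pig 30) for the 24 h HOPE hearts, 1.06 to 1.08 for the SCS hearts, and 0.781 (pig 31), 1.08 (pig 33) and 1.18 (pig 34) for the no-NRP hearts. In the 24 h HOPE and no-NRP groups the hearts had the same order in the factor and in MYD88 as deposited. After scaling, MYD88 stood at 17.2, 18.0 and 19.5 in the 24 h HOPE hearts, at 18.4, 19.8 and 19.5 in the SCS hearts, and at 23.5, 28.6 and 31.4 in the no-NRP hearts. On this scale all 3 no-NRP hearts lay above all 6 with NRP, one of 2 such separations among the 8 genes, the other being TLR4 in the opposite direction, where 6.06% of all genes had one.

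On the scaled values the log2 fold change of MYD88 was 0.50 for no-NRP over SCS and -0.58 for 24 h HOPE over no-NRP, both with an unadjusted limma p under 0.05, and its adjusted p was at least 0.258 and 0.170 in every setting tried. TLR4 on the same scale stood at 8.67, 5.17 and 6.94 in the 24 h HOPE hearts, 2.65, 3.66 and 3.89 in the SCS hearts, and 2.59, 2.39 and 2.44 in the no-NRP hearts, so that all 3 groups were apart. Its log2 fold changes were then 0.84 for 24 h HOPE over SCS, -0.33 for no-NRP over SCS and 1.17 for 24 h HOPE over no-NRP. Scaling also raised the shares over all genes. An unadjusted p under 0.05 was found for 1, 1 and 2 of the 8 genes in the same order of comparisons, against 8.54%, 12.4% and 11.7% of all genes. Hearts did not overlap for 1, 2 and 2 of the 8, against 14.6%, 18% and 16.3% of all genes. The median of all genes for 24 h HOPE over SCS moved from -0.12 to 0.00.

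A ratio within a heart does not depend on such scaling. The ratio of TLR4 to MYD88, chosen after the values were seen, was 0.503, 0.287 and 0.356 in the 24 h HOPE hearts, 0.144, 0.185 and 0.200 in the SCS hearts, and 0.110, 0.0836 and 0.0777 in the no-NRP hearts. The 3 groups did not overlap in any pair (exact permutation p = 0.1 each, the smallest possible). Such separation was common for TLR4, whose ratios to the other genes above 0 in every heart separated 24 h HOPE from SCS for 59%, no-NRP from SCS for 28.8% and 24 h HOPE from no-NRP for 78.9% of 10993 genes. For its ratios to the 7 other genes of the pathway tested here the counts were 2, 2 and 5. The ratios of MYD88 separated the same pairs for 14.8%, 37.9% and 40.2% of all genes and for 1, 2 and 2 of the 7.

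**Figure D3:**
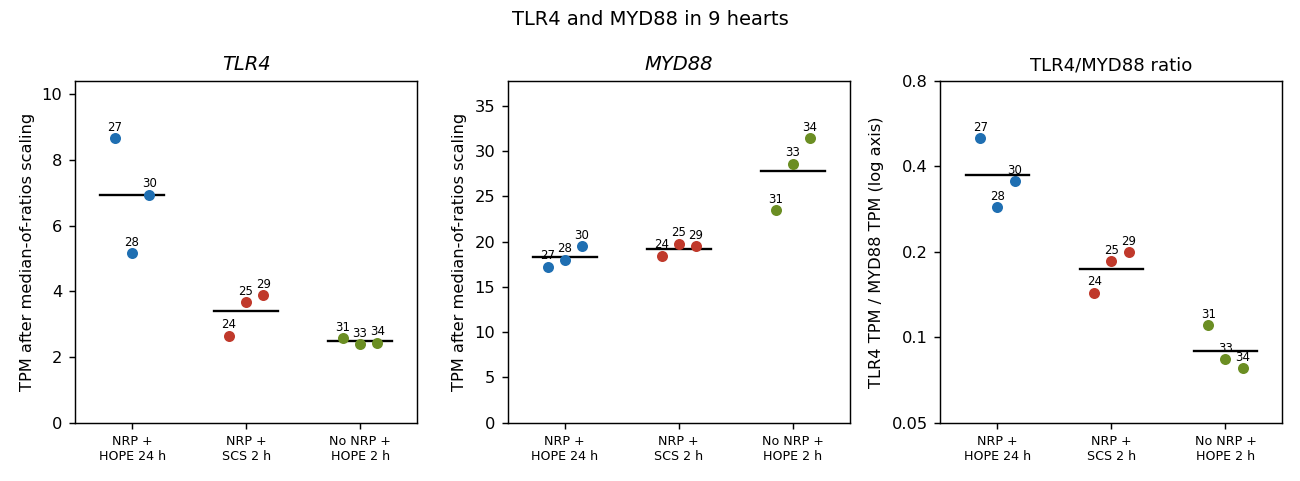
TLR4 and MYD88 in every heart after median-of-ratios scaling (scaled TPM, axes from 0, bars at group means), and the ratio of their TPM on a log axis (bars at geometric means); points are labelled with the pig number. The 24 h HOPE hearts are highest in TLR4, the no-NRP hearts (23.5 to 31.4) lie above the others (17.2 to 19.8) in MYD88, and the ratio is 0.287 or more in the former and 0.110 or less in the latter.

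The kinase IRAK1 (ENSSSCG00000012795) had 16.2, 18.3 and 31.6 TPM in the 24 h HOPE hearts, 30.2, 24.8 and 22.2 TPM in the SCS hearts, and 17.4, 27.6 and 15.7 TPM in the no-NRP hearts. The groups overlapped, with pig 30 highest and pig 34 lowest. Its log2 fold changes were -0.26 (interval -0.97 to 0.44) for 24 h HOPE over SCS, -0.37 (-1.07 to 0.34) for no-NRP over SCS and 0.10 (-0.60 to 0.81) for 24 h HOPE over no-NRP, with limma adjusted p = 0.993, 0.880 and 0.996. MYD88 stood at 0.785, 0.899 and 0.829 times IRAK1 in the 24 h HOPE hearts, at 0.660, 0.846 and 0.940 times in the SCS hearts and at 1.06, 1.12 and 2.37 times in the no-NRP hearts. The adaptor was thus above its kinase in every heart without NRP and below it in every heart with NRP, in a ratio also picked after the values were seen.

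The genes were next compared with each other over the 9 hearts, by Pearson r and Spearman rho on log2(TPM + 1) with exact permutation p. The family held 36 relations, the pairs of the 8 genes and each gene with the summed monocyte and macrophage markers, and 0 had an adjusted p under 0.05. TLR2 and its co-receptor CD14 had r = 0.76 (exact permutation p = 0.0174, adjusted p = 0.156) and rho = 0.58 (p = 0.108, adjusted p = 0.486). The r was 0.84 without pigs 24 and 29, the hearts farthest from the median of TLR2, and 0.78 after each group was centred on its own mean. TLR4 had r = 0.47 with CD14 and -0.17 with LY96, and the differences between these r values were not tested. Without pigs 30 and 31, the farthest from the median of TLR4, these were 0.25 and -0.86, and after centring 0.35 and 0.15, so that the relation with LY96 has no stable sign.

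The macrophage marker sum held none of the 8 genes but C1QA, TYROBP and other genes of that lineage, and no relation with it passed the adjusted threshold. For MYD88 r was 0.90 (exact permutation p = 0.00143, adjusted p = 0.0516) and rho 0.78 (p = 0.0172, adjusted p = 0.207), with r = 0.70 without pigs 27 and 34 and 0.88 after centring the groups. TLR3 had r = 0.81 (exact permutation p = 0.00567, adjusted p = 0.102) and rho = 0.85 (p = 0.00607, adjusted p = 0.109) with the same sum, with r = 0.89 without pigs 31 and 34 and 0.82 after centring. For TLR3 and MYD88 r was 0.78 (exact permutation p = 0.0121, adjusted p = 0.145) and rho 0.87 (p = 0.00451, adjusted p = 0.109), with r = 0.64 without pigs 31 and 34. After median-of-ratios scaling these 3 values of r were 0.78, 0.69 and 0.60.

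TLR4 had r = -0.15 with the macrophage marker sum over the 9 hearts (exact permutation p = 0.701) but 0.58 after centring the groups, and -0.71 without pigs 30 and 31, so that the sign depends on the hearts and on the centring. The sum was 121, 201 and 301 TPM in the 24 h HOPE hearts, 181, 316 and 191 TPM in the SCS hearts, and 194, 297 and 411 TPM in the no-NRP hearts, and the groups overlapped. Of the 11 markers tested, 0 had an unadjusted or adjusted limma p under 0.05 in either comparison with SCS. In each of these comparisons MRC1 was the 1 of 11 without overlap, against 9.82% of all genes for 24 h HOPE and 14.7% for no-NRP. Its mean was 5.30 TPM in 24 h HOPE and 5.81 TPM in no-NRP, below 7.46 TPM in SCS. The unadjusted count for no-NRP over SCS was 2 of 11 without pig 25 (C1QA and FCGR1A) and 1 of 11 without pig 31 or 33. FCGR1A was the 1 of 11 with an unadjusted p under 0.05 in 24 h HOPE over no-NRP (against 6.01% of all genes, log2 fold change -1.73, limma adjusted p = 0.658). It was at 30.7 TPM in pig 34, beside 2.46 and 4.51 TPM in the other no-NRP hearts, and without pig 34 the log2 fold change was -0.78, with an unadjusted p above 0.05. That count was 2 of 11 without pig 27 or 33 and 3 of 11 without pig 30 (FCGR1A, LYVE1 and TYROBP). The part of macrophage content in the TLR4 values was not tested. The endothelial marker sum was 259 to 537 TPM in the 24 h HOPE hearts, 502 to 548 TPM in the SCS hearts and 267 to 555 TPM in the no-NRP hearts. All 7 endothelial markers had a negative log2 fold change for 24 h HOPE over SCS (median -0.47, beside -0.12 over all genes). Of these, 0 of 7 had an unadjusted or adjusted limma p under 0.05. TEK and CLEC14A had no overlap (2 of 7, against 9.82% of all genes). The median was -0.16 without pig 27 and -0.69 without pig 30, beside 0.04 and -0.31 over all genes. TEK had an unadjusted p under 0.05 without pig 30. In 24 h HOPE over no-NRP the median was -0.05 and CLEC14A was the 1 of 7 with an unadjusted p under 0.05 (against 6.01% of all genes, log2 fold change -0.83, limma adjusted p = 0.826), a count of 0 to 2 with a heart left out, and 2 without pig 30 or 31 (with TEK). Their part in the receptor values was not tested. The haemoglobin gene HBB was at 73.5, 339 and 420 TPM in the 24 h HOPE hearts, 70.8, 132 and 78.4 TPM in the SCS hearts, and 220, 368 and 220 TPM in the no-NRP hearts. Its log2 fold change over SCS was 1.27 for 24 h HOPE (limma adjusted p = 0.943) and 1.52 for no-NRP (limma adjusted p = 0.516), both with an unadjusted p under 0.05, the former lost without pig 24, 28, 29 or 30. With the haem synthesis gene ALAS2 (1.14, limma adjusted p = 0.658), 2 of 2 erythroid markers had such a p for no-NRP over SCS (7.22% of all genes) and no overlap (14.7%), 1 or 2 with a heart left out, HBB each time, and the part of residual blood in any receptor value was not tested. Of the 9 cardiomyocyte markers, the natriuretic peptide gene NPPB was the only one with such a p for 24 h HOPE over SCS (log2 fold change 1.68, limma adjusted p = 0.993) and the cardiac actin gene ACTC1 for 24 h HOPE over no-NRP (0.76, limma adjusted p = 0.829), against 4.97% and 6.01% of all genes. The call of NPPB was lost without pig 24, 25, 28 or 30 and that of ACTC1 without pig 28, 30 or 33. Without pig 29 the count for 24 h HOPE over SCS was 3 of 9 (NPPA, NPPB and TNNI3). Without pig 27 the count for 24 h HOPE over no-NRP was 2 of 9 (ACTC1 and NPPB).

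**Figure D4:**
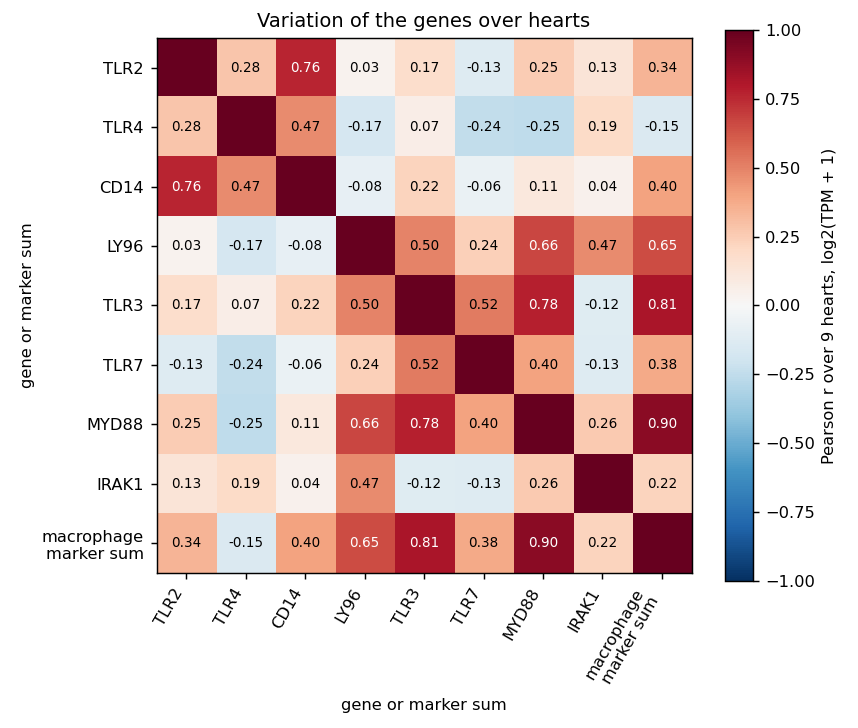
Pearson r over 9 hearts between the 8 genes tested and the summed monocyte and macrophage markers, on log2(TPM + 1). TLR2 pairs with CD14 (0.76), MYD88, TLR3 and the marker sum have r of 0.78 to 0.90 with each other, LY96 has 0.50 to 0.66 with them, and TLR4 has -0.25 to 0.07.

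Among all genes tested, those most like TLR4 over the 9 hearts were DCUN1D4 and GPC1 (each r = 0.93) and ZDHHC2 (r = 0.91), and 4 genes had r of at least 0.9. GPC1, a cell surface heparan sulfate proteoglycan, had 48.7, 37.2 and 116 TPM in the 24 h HOPE hearts, 36.4, 46.8 and 42.6 TPM in the SCS hearts, and 22.9, 27.4 and 26.9 TPM in the no-NRP hearts. For MYD88 they were IFT52 and SLC37A2 (each r = 0.98) and SHISA5 (r = 0.97), out of 119 genes, and for LY96 the cadherin gene CDH11 (r = 0.97), MYOF (0.95) and SLC35A2 (0.93). For CD14 they were SDHD (0.91), ZNF382 (0.91) and DOK7 (0.90). For TLR2 they were an entry of the short RNA family RF00213 (0.95), UBAC2 (0.94) and CHN2 (0.93), for TLR7 SYNC (0.97), FAM35A (0.95) and DSN1 (0.92), and for IRAK1 GALNT18 (0.98), ZNF777 (0.98) and NOP9 (0.97). With 9 hearts and 11782 genes such values only describe likeness.

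The rest of the pathway was read from lists of its parts. Of 12 further receptors and their helpers, 10 were found and 5 tested, and LBP, which passes lipopolysaccharide to CD14, was listed at 0 in every heart. In both comparisons with SCS, 0 of these 5 had an unadjusted or adjusted limma p under 0.05. By the unadjusted p, 4.97% of all genes did for 24 h HOPE and 7.22% for no-NRP. The median log2 fold change was 0.07 for 24 h HOPE and 0.40 for no-NRP. For 24 h HOPE it was 0.33 without pig 27 and -0.41 without pig 30. The largest log2 fold changes were those of CNPY3, a chaperone of Toll-like receptors (-0.42 and -0.50), and UNC93B1 (-0.31 and 1.25). UNC93B1 was the 1 of 5 with an unadjusted p under 0.05 in 24 h HOPE over no-NRP (against 6.01% of all genes, log2 fold change -1.56, limma adjusted p = 0.829), and its no-NRP mean (27.8 ± 35.2 TPM, SD, n = 3) rested on pig 34. The call was lost without pig 27, 28, 33 or 34, the count was 2 of 5 without pig 30 (with TLR9), and for no-NRP over SCS it was 1 of 5 without pig 31.

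Of 22 further adaptors and kinases, 20 were found and 16 tested, and the median log2 fold change was -0.08 for 24 h HOPE and -0.11 for no-NRP over SCS. IRAK2, a kinase of the same family as IRAK1, was the 1 of 16 with an unadjusted p under 0.05 for 24 h HOPE over SCS, a share near the 4.97% of all genes. It had 60.1, 74.3 and 62.9 TPM in the 24 h HOPE hearts, without overlap with the 52.8, 36.9 and 27.6 TPM of the SCS hearts (log2 fold change 0.78, SE 0.31, limma adjusted p = 0.943). Its call was lost without pig 25, 28 or 29. Of the 16, 2 had no overlap in this comparison (9.82% of all genes), IRAK2 and, in the other direction, the kinase IRAK4 (4.16 ± 1.36 TPM against 6.57 ± 0.678 TPM, SD, n = 3 each, log2 fold change -0.59, limma adjusted p = 0.993). TICAM1, the gene of TRIF itself, and IRF7 were listed at 0 in every heart. For no-NRP over SCS the limma count was 0 of 16 (7.22% of all genes), and the largest were IRAK2 (0.60) and RIPK1 (0.54), a kinase downstream of TRIF. PIK3AP1, an adaptor to PI3 kinase with a log2 fold change of 0.61 for 24 h HOPE over SCS, was the 1 of 16 with an unadjusted p under 0.05 in 24 h HOPE over no-NRP (against 6.01% of all genes, log2 fold change 0.83, limma adjusted p = 0.826), a call lost without pig 28, 30 or 31. With a heart left out, the list's counts were 0 to 2 for 24 h HOPE over SCS, 0 to 3 for no-NRP over SCS and 0 to 5 for 24 h HOPE over no-NRP.

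Of 15 inhibitors of the pathway, 12 were found and 11 tested, and values lay on both sides of 0. TNFAIP3 (A20), a ubiquitin-editing enzyme that is itself induced by NF-κB, had 28.7, 57.0 and 42.9 TPM in the 24 h HOPE hearts, 15.6, 9.58 and 9.38 TPM in the SCS hearts, and 4.94, 13.9 and 11.3 TPM in the no-NRP hearts. SIGIRR, a membrane receptor that dampens Toll-like and interleukin-1 signaling, had 14.0, 14.0 and 26.9 TPM in the 24 h HOPE hearts, 47.7, 35.9 and 43.6 TPM in the SCS hearts, and 27.5, 46.8 and 23.1 TPM in the no-NRP hearts. The 24 h HOPE hearts were thus above both other groups in TNFAIP3 and below the SCS hearts in SIGIRR, without overlap. Such separation was found for 3 of the 11 from SCS (9.82% of all genes), the other being TRAF1, and for 4 of the 11 from no-NRP (7.48% of all genes).

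The log2 fold change of 24 h HOPE over SCS was 1.79 for TNFAIP3 (SE 0.39, limma adjusted p = 0.199), -1.23 for SIGIRR (SE 0.34, limma adjusted p = 0.477) and 0.91 for the TNF receptor-associated TRAF1 (SE 0.36, limma adjusted p = 0.943). These were the 3 of 11 with an unadjusted p under 0.05 (4.97% of all genes), beside a median of 0.24 over the list. For no-NRP over SCS it was 1 of 11 (7.22% of all genes) with a median of 0.16, namely TNIP1, a partner of TNFAIP3 (log2 fold change -0.80, limma adjusted p = 0.565), and the largest value was that of the repressor ATF3 (0.91, limma adjusted p = 0.702). Between 24 h HOPE and no-NRP there were 4 of 11 against 6.01% of all genes (the former over the latter), TNFAIP3 (2.04), TNIP1 (1.21), SOCS1 (-0.98) and SIGIRR (-0.80), with limma adjusted p from 0.140 to 0.804. With a heart left out, the 3 over SCS became 2 or 3, TNFAIP3 and SIGIRR each time, the 4 over no-NRP became 2 to 5, TNFAIP3 and TNIP1 each time, and the 1 for no-NRP over SCS became 0 to 3.

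Of 16 genes for ligands that damaged tissue can offer to TLR2 or TLR4, 12 were found and 9 tested. Over SCS the list's median log2 fold change was 0.07 for 24 h HOPE and -0.08 for no-NRP. The summed ligands were 734 to 772 TPM in the no-NRP hearts, above the 664 to 719 TPM of the SCS hearts. They were 547 to 822 TPM in the 24 h HOPE hearts. After median-of-ratios scaling the no-NRP and SCS ligand sums overlapped (975, 716 and 619 against 614, 661 and 670). The matrix proteoglycan gene DCN was the most abundant gene of this list and also a fibroblast marker. It was at 404 ± 48.0 TPM (SD, n = 3) in the no-NRP hearts and 312 ± 28.4 TPM (SD, n = 3) in the SCS hearts. The hearts did not overlap (log2 fold change 0.37, limma adjusted p = 0.804). The fibroblast marker sum, which holds DCN, lay the same way, at 1020 to 1150 TPM against 669 to 982 TPM. It overlapped after the same scaling (1473, 946 and 874 against 619, 858 and 914). COL3A1 and DCN were the 2 of 5 fibroblast markers without overlap (14.7% of all genes). The part of the fibroblast sum in the ligand sum was not tested. DCN and S100A9, in opposite directions, were the 2 of 9 without overlap in this comparison, against 14.7% of all genes. The count with an unadjusted p under 0.05 was 1 of 9 for 24 h HOPE over SCS (4.97% of all genes), 2 of 9 for no-NRP over SCS (7.22%) and 1 of 9 for 24 h HOPE over no-NRP (6.01%), made up of S100A9 and TNC. The last of these was 2 of 9 without pig 27 (S100A9 and TNC) or pig 30 (BGN and TNC). Without pig 24, TNC was the 1 of 9 for 24 h HOPE over SCS. S100A9, a calcium-binding protein of neutrophils and monocytes that TLR4 recognises, had 0.356, 0.774 and 2.65 TPM in the 24 h HOPE hearts, 8.02, 4.78 and 1.79 TPM in the SCS hearts, and 0.343, 0.199 and 0 TPM in the no-NRP hearts. Its log2 fold change over SCS was -1.35 for 24 h HOPE (limma adjusted p = 0.792) and -2.17 for no-NRP (limma adjusted p = 0.140), both with an unadjusted p under 0.05, the former lost without pig 24 or 27. S100A9 is also one of the neutrophil markers, whose sum was 3.16 to 9.56 TPM in the 24 h HOPE hearts, 6.84 to 16.4 TPM in the SCS hearts and 1.44 to 7.83 TPM in the no-NRP hearts, and the part of neutrophil number in it was not tested.

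The matrix protein tenascin-C (TNC), a TLR4 ligand of injured tissue, was at 9.19, 14.3 and 14.4 TPM in the 24 h HOPE hearts, 11.9, 5.36 and 4.48 TPM in the SCS hearts, and 0.567, 6.04 and 1.38 TPM in the no-NRP hearts, and the SCS hearts overlapped with either other group. The log2 fold change was 0.81 for 24 h HOPE over SCS (limma adjusted p = 0.993), -1.36 for no-NRP over SCS (limma adjusted p = 0.565) and 2.17 for 24 h HOPE over no-NRP (limma adjusted p = 0.263), with an unadjusted p under 0.05 in both comparisons of no-NRP, that with SCS lost without pig 24 or 31. HMGB1, a nuclear protein that acts as such a ligand when released, had log2 fold changes over SCS of -0.12 for 24 h HOPE and -0.28 for no-NRP (limma adjusted p = 0.993 and 0.887) and was picked after its values were seen.

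Of 14 genes listed from general knowledge as outputs of the MYD88 branch, 12 were found and 10 tested. For 24 h HOPE over SCS, 6 of the 10 were higher with an unadjusted limma p under 0.05, against 1.82% of all genes. The list's median log2 fold change was 1.06. The 6 were the chemokine genes CXCL2, CXCL8 and CCL2, the prostaglandin synthase PTGS2 and the cytokines IL1A and IL10. The part of MYD88 signaling in their levels was not tested. For no-NRP over SCS the count was 0 of 10 by the unadjusted and the adjusted limma p, with a median of 0.08. By the unadjusted p it was 7.22% of all genes. The largest values were those of CCL3L1 (1.21) and CXCL8 (0.89). Without pig 25 or 31 the unadjusted count was 1 of 10 (CCL3L1). For 24 h HOPE over no-NRP the count was again 6 of 10, all higher, where 2.78% of all genes were. NFKBIZ (0.86) was in the place of IL10, and the median was 0.88. In limma 0 of the 10 had an adjusted p under 0.05 in any of the 3 comparisons. With a heart left out, the 6 over SCS became 4 to 6, with CXCL2, CXCL8, IL1A and PTGS2 among them each time, and the 6 over no-NRP became 3 to 6, with 3 without pig 28 or 31.

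CCL2, which attracts monocytes, had 2340, 4867 and 2844 TPM in the 24 h HOPE hearts, 1882, 2064 and 1152 TPM in the SCS hearts, and 1373, 2579 and 1389 TPM in the no-NRP hearts. IL10, an anti-inflammatory cytokine, had 0.703, 1.42 and 1.78 TPM in the 24 h HOPE hearts, 0.131, 0.381 and 0.535 TPM in the SCS hearts, and 0.461, 1.28 and 1.20 TPM in the no-NRP hearts. In both genes the 24 h HOPE hearts lay above the SCS hearts and overlapped with the no-NRP hearts. The same 6 targets that had an unadjusted p under 0.05 over SCS were the 6 of 10 without overlap there (9.82% of all genes). From the no-NRP hearts 4 of 10 were separate (7.48% of all genes), with IL1A, CXCL2 and NFKBIZ higher and TNF lower in 24 h HOPE, while CXCL8, CCL2 and PTGS2 overlapped. TNF, a classical product of the branch, had a log2 fold change of -0.20 for 24 h HOPE over SCS (limma adjusted p = 0.993) and of -0.35 over no-NRP (1.31 ± 0.469 TPM against 1.92 ± 0.497 TPM, SD, n = 3 each, limma adjusted p = 0.971), and was picked after its values were seen.

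Among the genes listed from general knowledge as outputs of the TRIF branch, the interferon-induced IFIT1, MX1 and RSAD2 were highest in pig 34. The part of TRIF signaling in the levels of such targets was not tested. Of 12 such targets, 7 were found and 6 tested, and the interferon gene IFNB1 was listed at 0 in every heart. For no-NRP over SCS, 2 of the 6 had an unadjusted limma p under 0.05 with a higher level, where 2.57% of all genes did, and the median log2 fold change was 0.99. They were the interferon-induced genes IFIT1 (1.96, limma adjusted p = 0.596) and MX1 (1.59, limma adjusted p = 0.602). IFIT1 had 20.1, 48.3 and 24.8 TPM in the 24 h HOPE hearts, 7.27, 31.5 and 17.2 TPM in the SCS hearts, and 17.3, 56.5 and 272 TPM in the no-NRP hearts. The chemokine gene CCL5, also on the list, was at 4.51 TPM in pig 34 and higher in pigs 28, 29, 30 and 33 (4.87 to 6.63 TPM). The summed targets of this branch were at 1530 TPM in pig 34 and at 194 to 344 TPM in the other 8 hearts. For 24 h HOPE over SCS 0 of the 6 had an unadjusted or adjusted limma p under 0.05, with a median of 0.31 and the largest values in IFIT1 (0.82) and CCL5 (0.51). Without pig 34 the count for no-NRP over SCS was 0 of 6 in limma, with a median of 0.37. Without pig 31, the lowest of the group, it was 5 of 6 with a median of 1.88. The median over all genes was then 0.06, beside -0.07 with all hearts. The count was 1 of 6 without pig 24 or 29 and 3 of 6 without pig 33. MX1 was the 1 of 6 with an unadjusted p under 0.05 in 24 h HOPE over no-NRP (against 6.01% of all genes, log2 fold change -1.43, limma adjusted p = 0.822). That count was 0 of 6 without pig 27, 30 or 34 and 4 of 6 without pig 31, with medians from -1.75 without pig 31 to 0.0025 without pig 34.

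**Figure D5:**
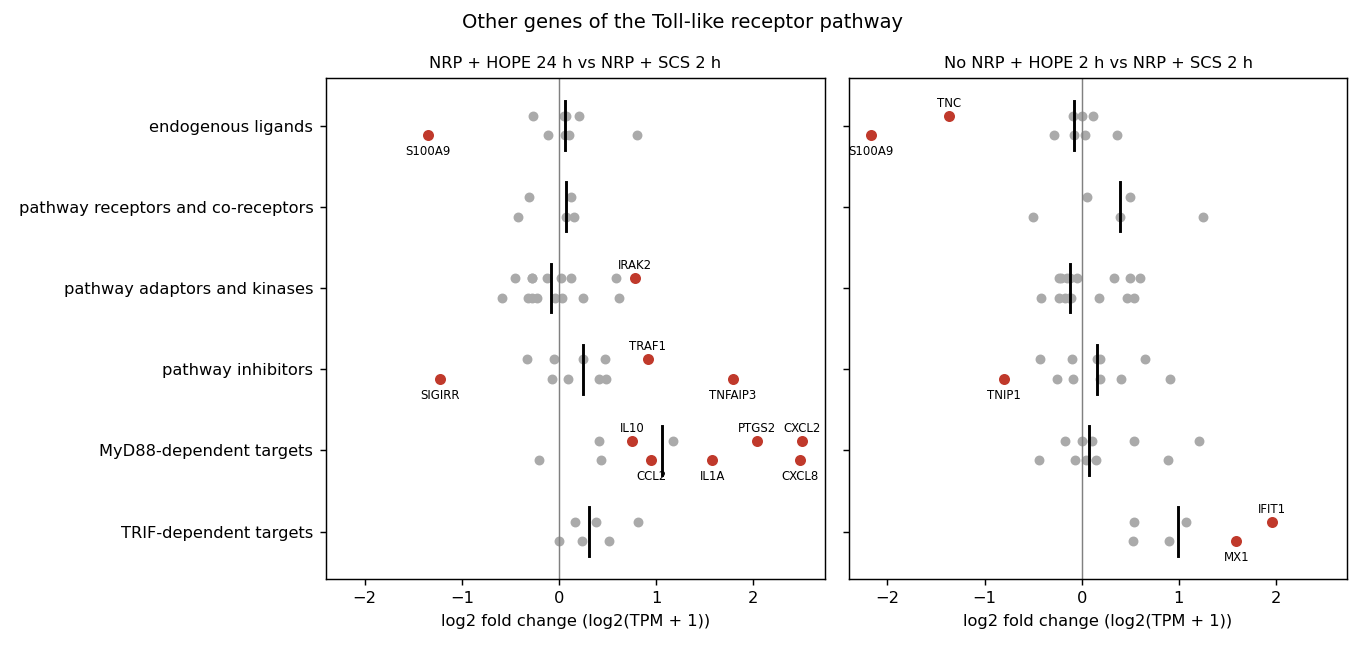
Log2 fold change on the log2(TPM + 1) scale of the other pathway genes tested, by list, for 24 h HOPE and no-NRP hearts over SCS hearts; red points had an unadjusted limma p under 0.05, grey points did not, and black bars are list medians. The MYD88 targets lie to the right for 24 h HOPE (median 1.06) and around 0 for no-NRP (0.08), and the TRIF targets lie to the right for no-NRP (0.99).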

How the data were processed

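Apex biopsies of 9 pig hearts, frozen after NMP, were analysed by the pig numbers in the labels. According to the study's methods, RNA with an integrity number above 6 was enriched with oligo(dT), sequenced in paired ends, trimmed, mapped with STAR 2.5.2b and counted with featureCounts (Subread 1.5.2), and the submitters' processing notes name Trimmomatic 0.36; the genome build and gene lengths are not given in the sources used here. The authors deposited TPM values, which sum to 1000000 per heart, and 9 further columns could not be tied to a sample and were not used. The depth per heart is unknown, so no counting intervals are given, and the number of hearts limits the precision. Since TPM are not counts, the authors' test of counts (DESeq2) was replaced by limma 3.58.1 (R 4.3.3) on log2(TPM + 1), with all 9 hearts in 1 fit, eBayes with a trend, two-sided tests and Benjamini-Hochberg adjustment over the 11782 genes that reached 1 TPM in 3 or more hearts. Fold changes on this scale understate the change of low genes. Of 12006 genes without a symbol, 748 were named from a reference table by identifier. Exact permutation tests used Python 3.11.15 with numpy 2.4.6. The fits were tested on simulated data.

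The members and gene lists were chosen with earlier results of these data known, and lists are described by counts, medians and sums without a set test. Named were all members, list genes with an unadjusted p under 0.05 in any comparison or, from the pathway lists, among the 2 largest changes over SCS (not given for the marker lists), the 3 genes most like each member and the 2 most abundant markers of each cell type. Also named were IRAK4, TEK and MRC1, which had no overlap between groups. Genes called only with a heart left out and genes listed at 0 in every heart were named too. Other exceptions are marked. The contrasts of 3 against 6 hearts, and the list counts with a heart left out, were added after the data were seen. No share over all genes is given for the fits with a heart left out, so those counts describe stability only. As alternatives, the pseudocount was set to 0.1, the filter was dropped or set to a mean of at least 5 TPM, and the fit was repeated with other scalings (median-of-ratios, quantile, or without the 13 mitochondrially encoded genes), the 6 hearts compared alone, other eBayes options, array weights (statmod 1.5.0) and each heart left out in turn.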

Additional observations from a re-analysis of the deposited data

How the results depend on the processing

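In limma 0 members passed the adjusted threshold under any alternative tried, and the lowest adjusted p of any member was 0.298 for 24 h HOPE over SCS, 0.258 for no-NRP over SCS and 0.127 for 24 h HOPE over no-NRP. The adjusted p of TLR4 ranged from 0.298 to 1 for 24 h HOPE over SCS and from 0.127 to 0.636 for 24 h HOPE over no-NRP. For 24 h HOPE over SCS, the number of members with an unadjusted p under 0.05 went from 1 to 0 with a mean of at least 5 TPM (a filter that removes TLR4), array weights and a fit of the 6 hearts compared, and was 0 to 1 with a heart left out (0 without pig 27, 30, 24, 25 or 29). For no-NRP over SCS it went from 0 to 1 (MYD88) with median-of-ratios scaling, quantile normalization and array weights. For 24 h HOPE over no-NRP it went from 1 to 0 with a mean of at least 5 TPM and to 2 (TLR4 and MYD88) with median-of-ratios scaling, quantile normalization, mitochondrially encoded genes left out and array weights, and was 1 to 2 with a heart left out (2 without pig 30 or 31). For 24 h storage against the other 6 hearts it went from 1 to 2 with median-of-ratios scaling and quantile normalization, and was 1 to 2 with a heart left out (2 without pig 30). For no-NRP against the other 6 it went from 1 to 2 with median-of-ratios scaling, quantile normalization and mitochondrially encoded genes left out, and was 1 to 2 with a heart left out (MYD88 and TLR4 without pig 30, MYD88 and TLR3 without pig 31). Apart from the filter that removes TLR4, the cause was not tested. With median-of-ratios scaling the share of all genes with an unadjusted p under 0.05 rose as well. It went from 4.97% to 8.54% for 24 h HOPE over SCS and from 7.22% to 12.4% for no-NRP over SCS. For 24 h HOPE over no-NRP it went from 6.01% to 11.7%. This share is not given for the other alternatives. The TLR4 fold changes kept their sign in every alternative that tested TLR4. Of the 564 member fold changes under alternatives, 50 had another sign than the reported value, and of the 108 correlations 32 did, all of them for results without a call. The iteration of the array weights stopped before its tolerance was met. No paired analysis was possible because the groups share no pig numbers. With 3 hearts per group and unknown depth, differences in the low receptors TLR7 and TLR8 are not resolved.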
